A study of Mus musculus with 2 samples.

Results

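Among mouse thymus cells, 120 barcodes that carried transcripts of the B cell receptor signalling chains Cd79a and Cd79b were described across genes. They came from 14638 barcodes with at least 500 genes, at least 1000 unique molecular identifiers (UMIs) and at most 10% mitochondrial UMIs. A barcode was taken when Cd79a and Cd79b together had at least 3 UMIs and when Trac, Ptcra and Cd8b1, which encode T cell receptor chains and a CD8 chain, were at 0. The WT library gave 67 of 7137 barcodes, and the library labelled cKO, from SETDBf/fCD4-Cre mice, gave 53 of 7501. In both, thymus cells had been enriched with beads against CD25, the interleukin-2 receptor alpha chain. Cd4-Cre is driven by Cd4 regulatory sequence and is used to delete floxed alleles in T-lineage cells, so no deletion is expected in B cells. The label does not say which SETDB gene is floxed, and age, sex and the number of mice behind each library are not given in the sources used here. There was 1 library per genotype, so no test between genotypes was made, and every 95% interval below is an exact interval that covers counting error only.

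The selected barcodes were of 2 kinds, and for most of them the name thymic B cells went against the data. At least 1 UMI of Ms4a1, Pax5 or Ebf1, none of which the selection used, was found in 45 of the 120, here called B-marker-positive. They were 33 of 67 in WT, 49.3% (36.8 to 61.8), and 12 of 53 in cKO, 22.6% (12.3 to 36.2). The other 75 barcodes, 34 in WT and 41 in cKO, held none of these 3 transcripts and are called B-marker-negative. All but 1 of these 75 carried at least 10 UMIs of the T cell receptor complex genes Cd3d, Cd3e, Cd3g, Trbc1 and Trbc2.

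As background, CD79A and CD79B form the signalling unit of the B cell receptor beside membrane immunoglobulin. VPREB3 is a protein of developing B cells that binds immunoglobulin chains in the endoplasmic reticulum. MHC class II molecules present peptides to CD4 T cells, with CD74 as their invariant chain and the H2-DM and H2-O proteins as editors of peptide loading. B cells of the thymus present self antigens on MHC class II to developing thymocytes, and part of them arise within the thymus. CD25, the target of the beads, is carried by early thymocytes, by regulatory T cells and by pre-B cells.

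The B-marker-positive cells divided mainly by Vpreb3 and by MHC class II transcripts, so the promoters of 5 of these genes are shown. Each is the 250 bases before the gene's start in RefSeq on GRCm38.p6, 5′ to 3′ on the gene's strand. Capitals mark the Y box TGATTGG, an element known from MHC class II promoters, in the first 4 and the octamer ATTTGCAT, a motif bound by POU factors, in the last.
H2-Aa, chr17:34287824-34288073, minus strand: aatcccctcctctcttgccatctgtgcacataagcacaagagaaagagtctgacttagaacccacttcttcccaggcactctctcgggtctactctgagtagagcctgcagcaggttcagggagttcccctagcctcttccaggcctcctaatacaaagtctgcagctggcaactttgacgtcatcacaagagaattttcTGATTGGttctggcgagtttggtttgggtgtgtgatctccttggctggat
H2-Eb1, chr17:34305617-34305866, plus strand: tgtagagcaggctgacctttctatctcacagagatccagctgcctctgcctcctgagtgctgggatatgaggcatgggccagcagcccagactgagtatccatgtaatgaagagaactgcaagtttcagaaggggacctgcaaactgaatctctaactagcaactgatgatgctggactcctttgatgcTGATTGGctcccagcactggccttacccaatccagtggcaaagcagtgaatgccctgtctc
H2-DMb2, chr17:34144999-34145248, plus strand: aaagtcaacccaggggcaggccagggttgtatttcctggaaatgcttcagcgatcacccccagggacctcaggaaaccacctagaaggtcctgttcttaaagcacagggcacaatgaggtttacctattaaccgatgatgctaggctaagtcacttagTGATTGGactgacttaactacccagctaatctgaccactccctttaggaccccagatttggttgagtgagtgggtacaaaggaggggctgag
H2-Oa, chr17:34092129-34092378, plus strand: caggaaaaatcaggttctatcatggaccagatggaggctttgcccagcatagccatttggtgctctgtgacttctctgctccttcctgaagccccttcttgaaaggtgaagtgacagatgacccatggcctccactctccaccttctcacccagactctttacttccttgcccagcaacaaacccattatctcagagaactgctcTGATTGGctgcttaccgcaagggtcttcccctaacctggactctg
Vpreb3, chr10:75948050-75948299, plus strand: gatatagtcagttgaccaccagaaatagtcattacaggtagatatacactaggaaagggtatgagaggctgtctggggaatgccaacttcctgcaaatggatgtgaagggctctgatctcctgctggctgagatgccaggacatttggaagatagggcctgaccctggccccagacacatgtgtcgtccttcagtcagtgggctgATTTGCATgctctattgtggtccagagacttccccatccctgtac
Searched on both strands, the Y box was found in 7 of the 12 MHC class II and antigen presentation genes with a promoter in the table and in 7.23% of all 32851 promoters of this length. The octamer was found in none of those 12, in 2 of 19 B cell identity genes (Blnk and Vpreb3) and in 1.6% of all promoters. The list counts are of genes with a match in any of their promoters, while the percentages are of single promoters, so the units differ. The motif letters were chosen after the promoters had been read, and a match describes these letters only.

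The selection threshold lay where the 2 kinds met. With 2 Cd79 UMIs, just outside, there were 106 WT barcodes, 1 of them with a B marker, and 91 cKO barcodes, 3 of them with a B marker. At 3 Cd79 UMIs, just inside, there were 25 WT barcodes, 1 of them with a B marker, and 30 cKO barcodes with none. Barcodes on both sides of the line carried many T gene UMIs, with medians of 109.5 (WT) and 112 (cKO) outside and of 96 and 135 inside. The exclusion of Trac, Ptcra and Cd8b1 had removed 132 of 199 WT and 79 of 132 cKO barcodes with at least 3 Cd79 UMIs, and 5 and 3 of those removed held a B marker. No selected barcode was called a doublet at the threshold used, against 148 WT and 129 cKO kept barcodes, and none of the 16 barcode sequences found in both libraries belonged to a selected cell.

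**Figure D1:**
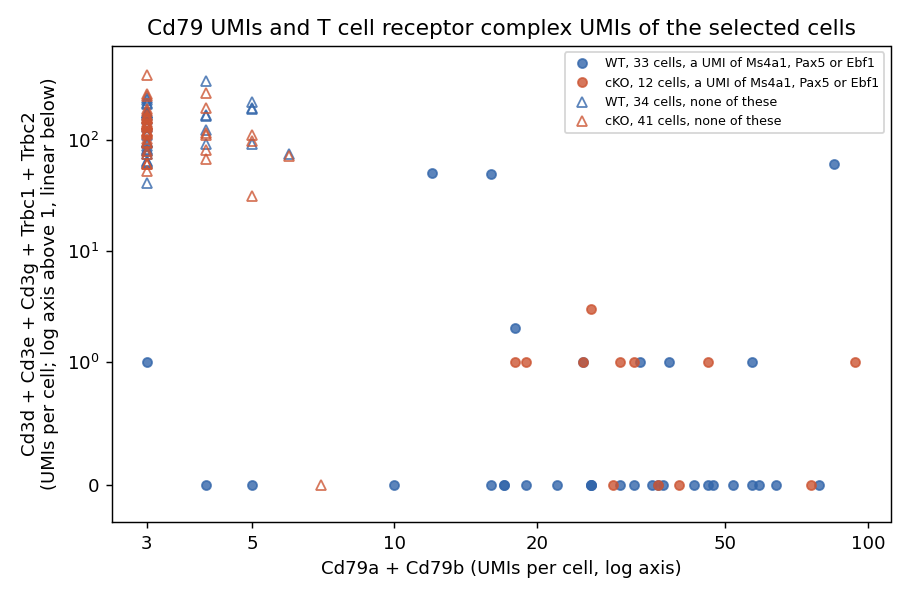
Each point is 1 selected cell, with the sum of Cd79a and Cd79b UMIs on the x axis (log) and the sum of Cd3d, Cd3e, Cd3g, Trbc1 and Trbc2 UMIs on the y axis (log above 1); filled circles are B-marker-positive cells and open triangles B-marker-negative cells of WT (blue) and cKO (orange). The B-marker-negative cells crowd at 3 Cd79 UMIs with median T gene UMIs of 126.5 in WT and 119 in cKO, and all but 3 of the 45 B-marker-positive cells lie at 3 T gene UMIs or fewer.

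The plot of Cd79 against T gene UMIs showed 3 WT cells with a B marker and 49, 50 and 61 T gene UMIs, while the other 30 WT cells held at most 2 and the 12 cKO cells at most 3. Of these 3, the cells with 49 and 50 were the most alike of the 2211 pairs of selected WT cells, with a chi-square per degree of freedom of 1.09 over 597 genes, where the next pair had 1.32. None of the 3 was called a doublet. Summed comparisons between the libraries over B-marker-positive cells below leave these 3 cells out unless stated. The choice was made after the data were seen, and the value with them is given where it turns the direction. Counts and shares out of 33 WT cells, thinned shares and levels against other barcodes keep all 3. The 9 WT MHC II-high cells include the 1 with 61 T gene UMIs.

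In the B-marker-positive cells the B cell program was broad. Cd79a was found in all 45, with 3 to 72 UMIs per cell (median 17) in the 33 WT cells and 9 to 76 (median 23) in the 12 cKO cells. Ighm, the heavy chain of IgM, was found in 30 of 33 WT cells (0 to 68 UMIs, median 24) and in 11 of 12 cKO cells (0 to 75, median 23.5). Both ranges overlapped widely between the libraries. At least 1 immunoglobulin light chain UMI was found in 33 of 33 and in 12 of 12 cells, and in 0 of 34 and 0 of 41 B-marker-negative cells. Igkc after thinning every cell to 2000 UMIs was found in 0.0613% of WT and 0.0999% of cKO barcodes selected for Cd8b1 and Rag1, which marks the background of free RNA, with unthinned median depths of 2607 and 2347 UMIs there. Thinning left out 1 WT B-marker-positive cell and 335 WT and 831 cKO comparator barcodes below that depth. In the B-marker-positive cells, thinned the same way, the Igkc share was 81.3% (63.6 to 92.8) in WT and 83.3% (51.6 to 97.9) in cKO, and 87.9% and 83.3% unthinned, at median depths of 3799 and 6402 UMIs.

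By sums over the cells, scaled to the total UMIs of the set (CPM), the genes that stood furthest above the other kept barcodes were light chains, Cd79a, Ebf1, Vpreb3 and Ms4a1. Ebf1, a transcription factor that sets B cell fate, reached 1876 CPM (WT) and 1180 CPM (cKO), against 0.996 and 0.782 CPM in the other barcodes. Blnk, an adaptor of B cell receptor signalling, was at 294 and 349 CPM against 0.492 and 0.701 CPM. Siglecg, an inhibitory receptor of B cells, was at 308 and 431 CPM against 1.23 and 0.796 CPM. Foxp3 and the plasmacytoid dendritic cell gene Siglech had a UMI in 0 of 33 and 0 of 12 cells. By the exact interval this allows up to 10.6% and 26.5% of cells with a UMI, and it sets no limit on cells that express the gene below detection. These levels describe the cells and carry no test. Cd79a was part of the selection, and Ebf1 and Ms4a1 helped define the set, so their excess was set in advance. Other B cell genes such as Blnk are linked to these.

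Immunoglobulin classes differed from cell to cell. Kappa made up most of the light chain UMIs in 24 of 33 WT and 7 of 12 cKO cells. Light chain UMIs were at least 90% kappa in 9 WT and 3 cKO cells and at least 90% lambda in 4 WT and 3 cKO cells, so most cells held UMIs of both. Class-switched heavy chains reached 5 UMIs in 6 of 33 and 4 of 12 cells. Ighd, which mature B cells co-express with Ighm, was found in 4 of the 33 cells in WT, a share of 12.1% (3.40 to 28.2), and in 6 of the 12 in cKO, or 50% (21.1 to 78.9). Igha counted 10 WT and 92 cKO UMIs, but a single cKO cell held 90 of the 92. Without the top cell of each library Igha stood at 2 UMIs in each.

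The cells fell into 24 Vpreb3-high cells, with at least 9 Vpreb3 UMIs, and 18 MHC II-high cells, with at least 40 UMIs of H2-Aa, H2-Ab1, H2-Eb1 and Cd74 together. Both limits were set after the values had been seen, so these sets get no test. No cell met both, and 3 WT cells and no cKO cell met neither. That none met both depends on the limits, since a WT cell with 15 Vpreb3 UMIs had 39 MHC class II UMIs. Near the limits, 9 WT and 2 cKO cells had 5 to 13 Vpreb3 UMIs, and 5 WT and no cKO cells had 20 to 80 MHC class II UMIs. Vpreb3 ran from 9 to 29 UMIs (median 15) in the 21 Vpreb3-high WT cells and was 12, 18 and 28 in the 3 cKO cells. MHC class II ran from 40 to 724 UMIs (median 185) in 9 WT cells and from 165 to 595 (median 310) in 9 cKO cells. The 3 lowest WT cells, at 40, 67 and 101, lay below every cKO cell of the set.

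**Figure D2:**
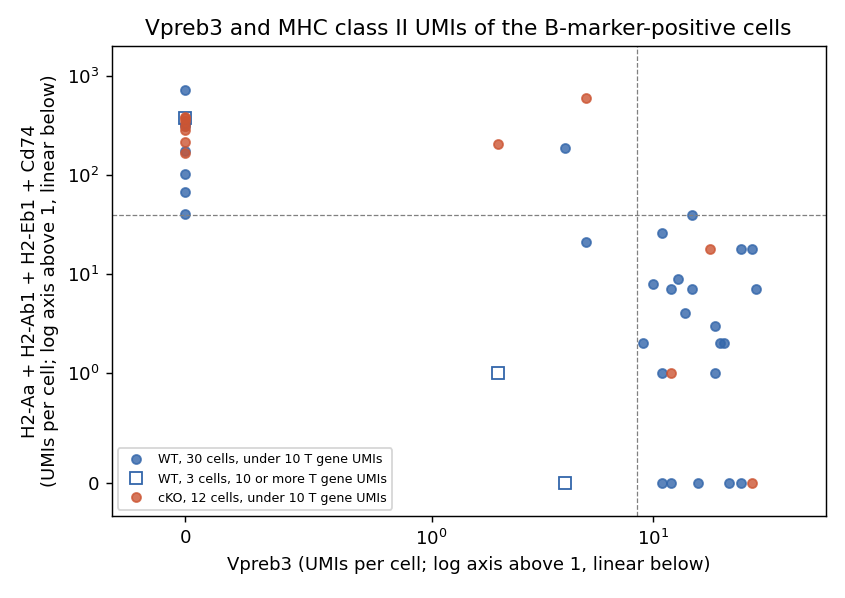
Each point is 1 B-marker-positive cell, with Vpreb3 UMIs on the x axis and the sum of H2-Aa, H2-Ab1, H2-Eb1 and Cd74 UMIs on the y axis (both log above 1, linear below) for WT (blue) and cKO (orange); open squares are the 3 WT cells with 10 or more T gene UMIs and dashed lines the limits of 9 and 40 UMIs. WT has 21 cells right of the vertical line and 9 above the horizontal line, cKO has 3 and 9, and no cell is beyond both. A WT cell with 15 Vpreb3 UMIs lies just under the horizontal line, at 39.

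Vpreb3-high cells carried transcripts of B cell development. Ebf1 reached 4046 CPM (WT) and 5159 CPM (cKO), against 277 and 599.6 CPM in MHC II-high cells. Sox4, a transcription factor of progenitors, was at 1176 and 1370 CPM against 159.8 and 0 CPM. Akap12, a kinase anchoring protein, was at 561 and 484 CPM and at 0 in MHC II-high cells of both libraries. Tcf3, which encodes the E2A factors needed for B cell development, was at 723 and 1048 CPM against 149 and 82.3 CPM. The same order held in both libraries for each of these genes. The WT MHC II-high levels include the cell with 61 T gene UMIs, which gave 27376 of the set's 93839 UMIs. It held 26 Myb and 29 Dntt UMIs. Of the pro-B and pre-B list, WT MHC II-high cells had a median of 0 UMIs and a maximum of 73. Rag1, a V(D)J recombinase subunit, was found in 10 of 21 WT and 3 of 3 cKO Vpreb3-high cells and had no UMI in the MHC II-high cells without T genes of either library. Il2ra, which encodes CD25, was found in 9 of 21 WT and in 0 of 3 cKO Vpreb3-high cells. Ighm was found in every Vpreb3-high cell, and Ighg2b in none.

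Several genes stood higher in MHC II-high than in Vpreb3-high cells, where the WT MHC II-high levels again include the cell with 61 T gene UMIs. Rgs1, a regulator of G protein signalling induced on activation, reached 1289 CPM (WT) and 1046 CPM (cKO), and was at 0 in Vpreb3-high cells of both libraries. Apoe, the lipid carrier apolipoprotein E, was at 1918 and 1975 CPM against 10.8 and 0 CPM. Egr1, an immediate early gene, was at 416 and 353 CPM against 0. The germinal centre and activation list went the other way, with medians per 10000 UMIs of a cell of 10.0 (WT) and 22.4 (cKO) in MHC II-high and 37.9 and 43.0 in Vpreb3-high cells. Bank1, a scaffold of B cell receptor signalling, was at 213 and 494 CPM against 21.6 and 0 CPM. Without the cell with the most Apoe UMIs in each library, Apoe in the 7 WT and 8 cKO MHC II-high cells that remained without T genes was 638 and 972 CPM.

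Over all 120 selected barcodes 14.6% of 7699 genes with at least 20 UMIs lay at least 1.5-fold apart between the libraries, a sum that mixes both kinds of cells. B-marker-positive cells were a smaller share of the kept barcodes in cKO, and Vpreb3-high cells had the lowest ratio of the sets compared. B-marker-positive cells were 0.462% (0.318 to 0.649) of WT and 0.160% (0.0827 to 0.279) of cKO barcodes, a ratio cKO over WT of 0.346 (0.163 to 0.687), or 0.381 (0.177 to 0.765) without the 3 WT cells with T genes. Vpreb3-high cells numbered 21 and 3, a ratio of 0.136 (0.0260 to 0.455). MHC II-high cells numbered 9 and 9, a ratio of 0.951 (0.335 to 2.71), and B-marker-negative cells 34 and 41, a ratio of 1.15 (0.710 to 1.86). The intervals of B-marker-positive and Vpreb3-high cells thus lay below 1, and those of MHC II-high and B-marker-negative cells included 1. Vpreb3-high cells with an Il2ra UMI numbered 9 in WT and 0 in cKO. The kept barcodes had median depths of 7882 UMIs in WT and 4854 in cKO, and the part of this in the shares was not tested. The part of the CD25 beads, of the capture and of the mice in these shares cannot be told apart from the genotype. The 120 selected barcodes as a whole were 0.939% of WT and 0.707% of cKO, a ratio of 0.753 (0.515 to 1.10).

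Sums over the B-marker-positive cells therefore set 30 WT cells, most of them Vpreb3-high, beside 12 cKO cells, most of them MHC II-high. Folds are log2 of the cKO CPM plus 5 over the WT CPM plus 5, and genes with at least 20 UMIs over both libraries were counted when they differed at least 1.5-fold. Of 1934 such genes, 13.5% were higher and 27.4% lower in cKO, 40.8% in all, with a median of −0.17, so a count of list members has to be read against a high background. MHC class II and antigen presentation genes had 10 of 10 members higher (median 1.46), and their summed level was 2.35 times that of WT (2.23 to 2.48). H2-Oa, a chain of the H2-DM inhibitor H2-O, had 14 UMIs in 8 of 30 WT cells and 52 in 9 of 12 cKO cells, a ratio of 6.23 (3.40 to 12.2). H2-Aa, the I-A alpha chain, had 253 and 421 UMIs, a ratio of 2.79 (2.38 to 3.28), and Cd74 had 1255 and 1592, a ratio of 2.13 (1.98 to 2.29). H2-DMb2, a chain of H2-DM, had 36 and 65 UMIs, a ratio of 3.03 (1.99 to 4.69). The cells with H2-Aa UMIs, 11 of 30 in WT and 10 of 12 in cKO, show how few cells carry these sums.

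Genes of early B cell stages and of the cell cycle stood lower in the cKO sum. All 5 measured pro-B and pre-B genes were lower (median −1.35), with a summed ratio of 0.315 (0.256 to 0.386). Vpreb3 counted 366 WT and 65 cKO UMIs, a ratio of 0.298 (0.225 to 0.389). Of 14 S phase and mitosis genes, 12 were lower and 1 higher (median −2.80), with a summed ratio of 0.219 (0.186 to 0.258). Mki67, a marker of cycling cells, had 14 UMIs in 4 WT cells and 2 in 2 cKO cells, and Top2a, topoisomerase II alpha, had 45 in 8 WT cells and 4 in 1 cKO cell. At least 10 UMIs of Mki67 and Top2a together were found in 2 of 30 WT and 0 of 12 cKO cells. Over the whole list a cell held a median of 8 UMIs in WT (0 to 441) and 7.5 in cKO (3 to 75), or 16.7 and 12.3 per 10000 of the cell's UMIs, so a few WT cells carried much of the summed difference. Without the top cell of each library the summed ratio was 0.213 (0.171 to 0.264). Csrp2, a LIM domain protein, had 28 UMIs in 13 WT cells and none in cKO, which with a floor of 3 counts over the set is at least 5.56-fold lower. Cd24a, the heat-stable antigen of immature lymphocytes, had 262 and 40 UMIs, a ratio of 0.256 (0.179 to 0.358), and Tifa, a TRAF-binding adaptor, had 115 and 14, a ratio of 0.204 (0.108 to 0.357). B cell identity genes were mixed, with 3 of 25 higher and 9 lower (median 0.09).

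Within MHC II-high cells without T genes, 8 in WT and 9 in cKO, the summed differences of the MHC class II and of the S phase and mitosis lists were smaller, while that of B cell receptor signalling was larger. The set was chosen on H2-Aa, H2-Ab1, H2-Eb1 and Cd74, so a smaller MHC class II difference within it partly follows from that choice. There 19.6% of 988 genes were higher and 22.2% lower, with a median of −0.09. MHC class II genes had 4 of 10 members higher and none lower (median 0.40), and a summed ratio of 1.2 (1.14 to 1.27), against 2.35 over all B-marker-positive cells. Of the 2065 WT UMIs of this sum, 785 came from 1 cell, so the ratio of 1.2 leans on that cell. Without the top cell of each library the MHC class II ratio was 1.49 (1.40 to 1.60). The same step gave 3.2 over the B-marker-positive cells without T genes. H2-Oa kept a ratio of 5.80 (2.63 to 15.1), with UMIs in 3 of 8 WT and 9 of 9 cKO cells. B cell receptor signalling genes had 10 of 13 members higher and none lower (median 0.83), with a summed ratio of 1.74 (1.47 to 2.07), against 1.24 (1.10 to 1.40) over all B-marker-positive cells without T genes. Among them, Cd22, an inhibitory lectin of the B cell surface, had 3 WT and 19 cKO UMIs, a ratio of 4.95 (1.46 to 26.1). Bank1 had 12 and 42 UMIs, a ratio of 2.73 (1.41 to 5.71), in 4 of 8 and 8 of 9 cells. Rel, an NF-kB subunit, had 2 and 20 UMIs, in 2 of 8 and 9 of 9 cells. Ighd had 0 UMIs in WT and 16 in 6 cKO cells, while Ighg2b had 88 in 3 WT cells and 22 in 4 cKO cells. A single WT cell held 61 of the 88, and a single cKO cell held 90 Igha UMIs. All class-switched heavy chains together counted 118 UMIs in WT and 116 in cKO. Grap, an adaptor of receptor signalling, was lower, at 36 and 12 UMIs, a ratio of 0.260 (0.123 to 0.512).

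**Figure D3:**
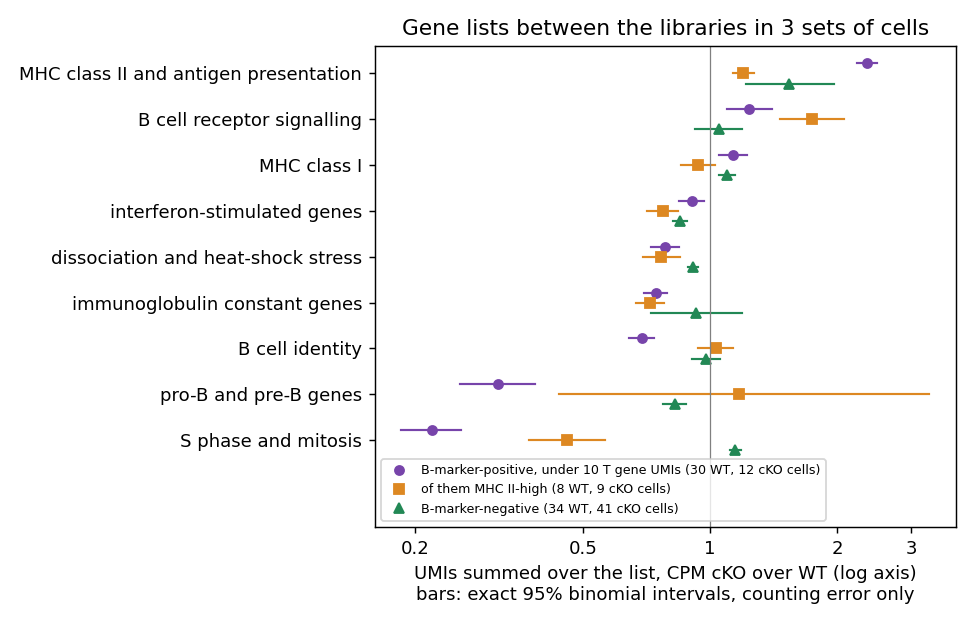
Points give the ratio cKO over WT of UMIs summed over each gene list, in CPM of the set on a log x axis, with exact 95% binomial intervals as bars, for B-marker-positive cells with under 10 T gene UMIs (purple circles), the MHC II-high cells among them (orange squares) and B-marker-negative cells (green triangles). The MHC class II list lies at 2.35 in the first set and 1.2 in the second, which was itself chosen on MHC class II UMIs. The S phase and mitosis list lies at 0.219 and 0.460 in these sets and at 1.15 in B-marker-negative cells.

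B-marker-negative cells held little of the B cell program. Cd79b was at 3 to 6 UMIs (median 3) in the 34 WT cells and 0 to 7 (median 3) in the 41 cKO cells, and the Cd79 sum was exactly 3 in 24 and 30 of them. Cd79a was found in 0 of 34 WT cells and in 1 of 41 cKO cells, at 5 UMIs. Ighm was found in 28 of 34 and 31 of 41 cells, with medians of 3 and 2 UMIs, and no cell had a light chain UMI. Dntt, the terminal transferase of early lymphocytes, was found in 33 of 34 and 37 of 41 cells (median 21 UMIs in each library) and Il2ra in 29 of 34 and 38 of 41. The cells were deep, with median totals of 17041.5 and 17602 UMIs. Cd74 was found in 1 of 34 and 2 of 41 cells. Of Cd79a, Cd79b, Ms4a1, Ighm and Cd74, Cd79b and Ighm were thus the ones common in these cells. The selection required Cd79 UMIs, and Ms4a1 was at 0 by the definition of the set.

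Against Ptcra-selected barcodes of the same libraries, which hold the pre-T cell receptor chain, the B-marker-negative cells had progenitor and myeloid-associated transcripts at higher levels. Cpa3, a protease of mast cells and early progenitors, reached 246 CPM (WT) and 290.4 CPM (cKO) against 18.1 and 22.6 CPM, and was found in 23 of 34 and 30 of 41 cells. Lyl1, a factor of progenitors, was at 28.8 and 39.8 CPM against 0.597 and 0.244 CPM. Rag1 was lower, at 21.2 and 4.30 CPM against 251 and 203 CPM, and so was Cd3d, at 209 and 177 CPM against 1041 and 1034 CPM. Notch3, a Notch receptor of pre-T cells, was at 21.2 and 16.1 CPM against 114 and 106 CPM. Ptcra itself was set to 0 by the selection, and genes that follow Ptcra share in that choice. This comparison therefore cannot tell whether these levels are particular to the Cd79-selected cells or shared by other barcodes without Ptcra. Tyrobp, an adaptor of myeloid and NK cells, was at 89.5 and 149.5 CPM but reached 3 UMIs in only 2 WT and 6 cKO cells. The single cKO cell without T genes had 7 Cd79b, 11 Siglech, 55 Tyrobp and 45 Bst2 UMIs.

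Between the libraries, 5.82% of 7098 genes were at least 1.5-fold higher and 9.09% lower in cKO B-marker-negative cells, with a median of −0.05. Cd34, a surface protein of progenitors, had 6 UMIs in 2 of 34 WT cells and 59 in 10 of 41 cKO cells, a ratio of 6.97 (3.02 to 19.8). Igfbp4, a binding protein of insulin-like growth factors, had 41 and 181 UMIs, a ratio of 3.13 (2.22 to 4.51), and Cd44, an adhesion receptor of the earliest thymocytes, had 6 and 43, a ratio of 5.08 (2.15 to 14.6). Hhex, a homeobox factor of progenitors, had 9 UMIs in 6 WT cells and 54 in 20 cKO cells, a ratio of 4.25 (2.08 to 9.80). Without the cells with a Siglech UMI or at least 3 Tyrobp UMIs, 32 WT and 35 cKO cells remained, in which Cd34 had 1 and 16 UMIs, Igfbp4 a ratio of 3.06 (2.01 to 4.81) and Cd44 4.05 (1.37 to 16.2). Cd160, a receptor of NK and T cells, had 1 UMI in WT and 29 in cKO, and 0 and 7 without those cells. T cell genes had 5 of 14 members lower and none higher (median −0.45), with a summed ratio of 0.768 (0.743 to 0.793). Germinal centre and activation genes had 6 of 11 higher and none lower, with a summed ratio of 1.69 (1.53 to 1.88). The typical cell differed little, with list medians of 9.17 and 9.67 per 10000 UMIs of a cell, while the highest cell held 34 UMIs of the list in WT and 242 in cKO. Without the top cell of each library the ratio was 1.47 (1.31 to 1.64). Gzma, a granule protease, had 411 and 273 UMIs, a ratio of 0.471 (0.403 to 0.550).

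Of the differences known from the T-lineage cells of these libraries, higher Tsc22d3 and Ssbp4 and lower Ifi27l2a and Isg15 in cKO were seen again in both kinds of selected cells, while Slc15a2 was too low to compare in B-marker-positive cells. In the B-marker-positive cells without T genes, Ssbp4 rested on 1 WT UMI and Isg15 on 2 cKO UMIs. In B-marker-negative cells a few WT cells carried much of the Ifi27l2a and Isg15 counts. As comparators, barcodes with Ptcra (at least 2 UMIs, no Cd8b1; 884 WT and 612 cKO), with Cd8b1 and Rag1 (1967 and 2832) and with Foxp3 but no Ptcra or Cd8b1 (228 and 217) were taken, all without Cd79 UMIs. The share of genes past 1.5-fold was 0.588%, 0.724% and 9.19% in these sets. Ratios stand side by side, and the differences between sets were not tested.

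Tsc22d3, which encodes the glucocorticoid-induced leucine zipper GILZ, was higher in cKO in both kinds of selected cells. In B-marker-positive cells without T genes it had 36 UMIs in 17 of 30 WT cells and 53 in 10 of 12 cKO cells, 220.1 and 544 CPM, which gives 2.47 (1.59 to 3.88). In the MHC II-high cells among them its level was 196 and 576 CPM, giving 2.95 (1.57 to 5.92), with 0 to 6 UMIs per WT cell and 0 to 16 per cKO cell, so the ranges overlapped. Without the top cell of each library the ratio in that set was 3.70 (1.61 to 9.92). In Vpreb3-high cells, 21 and 4 UMIs gave 1.42 (0.355 to 4.22). In B-marker-negative cells it was at 53.1 and 94.7 CPM, or 1.78 (1.19 to 2.72). The comparators had 2.31 (2.11 to 2.52) with Ptcra, 2.61 (2.47 to 2.77) with Cd8b1 and Rag1, and 1.81 (1.58 to 2.08) with Foxp3. Shares of cells kept the 3 WT cells with T genes. After thinning to 2000 UMIs, 40.6% (23.7 to 59.4) of WT and 50% (21.1 to 78.9) of cKO B-marker-positive cells had a Tsc22d3 UMI, against 60.6% and 83.3% unthinned. The thinned intervals overlapped, so a difference in the share of cells was not detectable at this depth and number of cells.

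Ssbp4, a single-stranded DNA binding protein, had 1 UMI in 1 of 30 WT cells and 9 in 7 of 12 cKO cells, a ratio of 15.1 (2.09 to 662). The WT count lay below the floor of 3 counts. In the MHC II-high cells among them Ssbp4 had 1 and 6 UMIs, a ratio of 4.69 (0.569 to 216), an interval that included 1. Its ratio was 1.94 (1.28 to 3.04) in B-marker-negative cells. Zfp36l2, an RNA-binding protein that promotes mRNA decay, had 31 and 36 UMIs in B-marker-positive cells, a ratio of 1.95 (1.17 to 3.26). Of the list of genes higher in cKO across T-lineage stages, which was chosen on these libraries, 3 of the 4 members measured in B-marker-positive cells were higher and none lower, where 13.5% of all genes were higher and 27.4% lower. In B-marker-negative cells 3 of 9 were higher and 1 lower, where 5.82% and 9.09% of all genes were. The summed ratio was 1.64 (1.34 to 2.02) and 1.34 (1.24 to 1.46). Slc15a2, a proton-coupled peptide transporter, could not be compared in B-marker-positive cells, where 1 cKO UMI and no WT UMI was counted. In B-marker-negative cells Slc15a2 had 3 and 15 UMIs, a ratio of 3.55 (1.0 to 19.1), beside 2.15, 5.27 and 7.24 in the comparators in the order above. The list of genes higher in cKO among Foxp3-positive cells had 0 of 4 members higher and 1 lower in B-marker-positive cells, with a summed ratio of 0.851 (0.628 to 1.15), against 13 of 14 higher and 4.30 in Foxp3-selected barcodes, where it was chosen and where 3.6% of all genes were higher.

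By summed levels, 22 of 43 interferon-stimulated genes were lower in cKO B-marker-negative cells, and the list was mixed in B-marker-positive cells. In B-marker-positive cells without T genes, 2 of 24 were higher and 5 lower (median −0.10), against 13.5% and 27.4% of all genes, with a summed ratio of 0.906 (0.845 to 0.971). Ifi27l2a alone gave 555 of the 2307 WT and 165 of the 1245 cKO UMIs of this sum, so the summed ratio leans on that gene. With the 3 WT cells that hold T genes the ratio turned to 1.07 (0.996 to 1.14), with 5 of 27 higher and 2 lower against 13.6% and 28.7% of all 2497 genes. In MHC II-high cells without T genes the summed ratio was 0.773 (0.711 to 0.840). In B-marker-negative cells none of 43 was higher and 22 were lower (median −0.60), against 5.82% and 9.09% of all genes (median −0.05), with a summed ratio of 0.852 (0.820 to 0.885). The comparators had 0.884 with Ptcra, 0.965 with Cd8b1 and Rag1, and 0.910 with Foxp3.

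Ifi27l2a and Isg15, members of this list, had lower summed levels in cKO in both kinds of selected cells. Ifi27l2a, an interferon-induced mitochondrial protein, counted 555 WT and 165 cKO UMIs in B-marker-positive cells, a ratio of 0.499 (0.417 to 0.595), and 0.395 (0.273 to 0.566) in B-marker-negative cells. Its ratio was 0.470, 0.499 and 0.847 in the comparators. Per cell, Ifi27l2a ran from 0 to 120 UMIs in WT and from 0 to 69 in cKO among all 33 and 12 B-marker-positive cells, so the ranges overlapped. Isg15, a ubiquitin-like modifier, counted 20 WT and 2 cKO UMIs, a ratio of 0.168 (0.0190 to 0.691), and 19 of the 20 came from 4 MHC II-high cells. In B-marker-negative cells Isg15 had 97 and 47 UMIs, a ratio of 0.344 (0.237 to 0.492), and in the comparators 0.313, 0.518 and 0.617. A few WT B-marker-negative cells carried much of these counts. Single WT cells held 23 and 22 of the 88 Ifi27l2a UMIs, and 17, 17, 11, 11 and 10 of the 97 Isg15 UMIs. Ifi27l2a had UMIs in 16 of 34 WT and 16 of 41 cKO cells, and Isg15 in 19 and 17. Without the top cell of each library these ratios were 0.401 (0.259 to 0.611) and 0.321 (0.213 to 0.477). Setdb1, which encodes an H3K9 methyltransferase, had 2 and 2 UMIs in B-marker-positive cells without T genes and 23 and 19 in B-marker-negative cells, and a 3′ tag need not lie in a deleted exon, so these counts check no deletion.

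**Figure D4:**
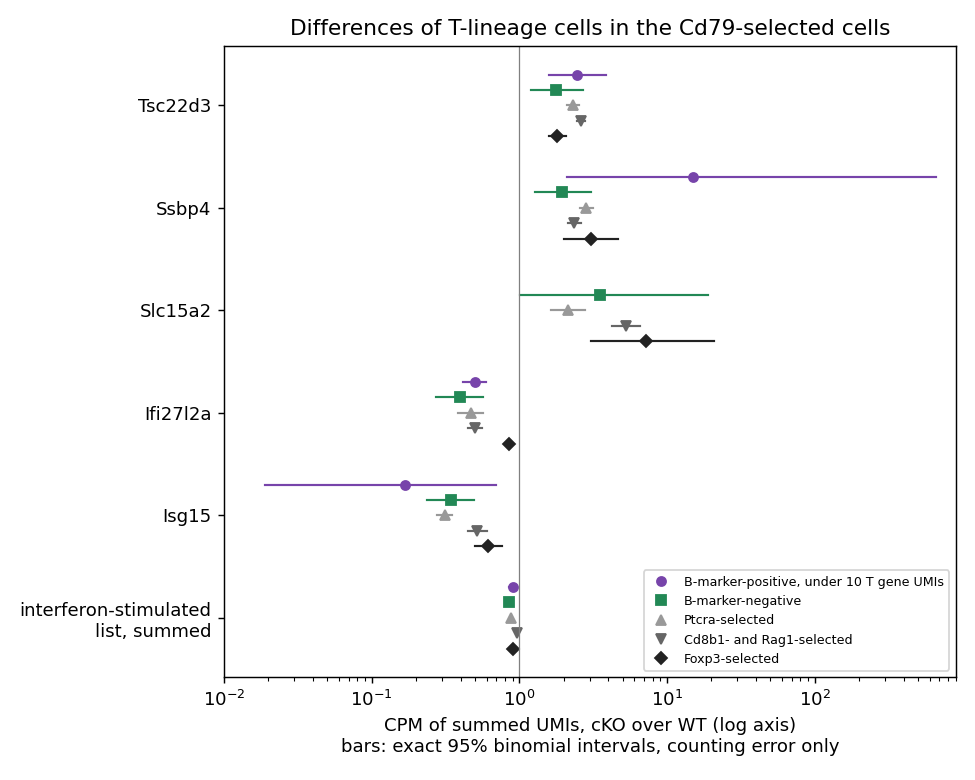
Points give the ratio cKO over WT of CPM (log x axis) with exact 95% binomial intervals as bars, for 5 genes and the summed interferon-stimulated list, in B-marker-positive cells with under 10 T gene UMIs (purple circles), B-marker-negative cells (green squares) and the Ptcra-, Cd8b1 and Rag1-, and Foxp3-selected comparators (grey to black). Tsc22d3 lies above 1 and Ifi27l2a below 1 in all 5 sets, and Slc15a2 has no point for B-marker-positive cells because WT had 0 UMIs.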

How the data were processed

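The authors deposited a matrix of unnormalized UMI counts for each library, with genes as rows and barcodes as columns, made with Cell Ranger 6.1.1 per the file headers. CASAVA 1.8 and Seurat 4.0.3 are further tools in the submitters' processing notes. The genome build and the alignment settings are not given in the sources used here. The chemistry was 10x 3′ v3.1 per the labels' protocols. The files held 7852 WT barcodes (89370968 UMIs) and 8461 cKO barcodes (76668166 UMIs), and kept barcodes had median depths of 7882 and 4854 UMIs.

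UMIs were summed over the cells of a set in each library and scaled to the set's total (CPM). Folds used a pseudocount of 5 CPM, and counts of genes used a minimum of 20 UMIs over both libraries and a fold of 1.5. For ratios an exact binomial interval from both counts is given, and for shares the Clopper-Pearson interval, both at 95%. Doublets were scored with scrublet in scanpy 1.11.5 at an expected rate of 0.06. The automatic threshold called 1 of 7501 cKO barcodes, so the WT threshold of 0.29 was used for both libraries. Scripts ran in Python 3.11.15 with numpy 2.4.6, scipy 1.17.1 and pandas 2.3.3. The fold counts were tried on data simulated with counting noise only. Simulated 3-fold changes passed 1.5-fold for 96% of genes in B-marker-positive and 94.5% in B-marker-negative cells. Of unchanged genes, 22.3% and 8.25% also passed it in these sets, and 7.05% over all selected barcodes. The sets without T genes and the MHC II-high sets were not simulated.

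The members, gene lists and tests were chosen with earlier results of these data known. Named genes had at least 20 UMIs, UMIs in at least 5 cells and no more than 25% of UMIs in a single cell, without immunoglobulin and T cell receptor segments and mitochondrial genes. They were the 12 with the highest lower bound and the 12 with the lowest upper bound of the ratio, and against other barcodes the 20 highest by the lower of both libraries' folds among genes with at least 50 UMIs. List members and genes of the selection rule were also named. The split by B marker was planned. The B-marker-negative set, the sets without T genes, the Vpreb3-high and MHC II-high sets, the lower genes against other barcodes and the values without top cells were added after the data were seen. Promoters were matched by symbol to RefSeq sequences on GRCm38.p6. Cd79b, Ciita, H2-Ab1 and Cd74 were not in that table. Some list members are not reported here by name.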

Additional observations from a re-analysis of the deposited data

Results flagged for a closer look

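For 11 genes reported here, the ratio cKO over WT pointed one way in B-marker-positive cells without T genes and the other way in B-marker-negative cells, with each library above 3 UMIs in each set. With 1 library per genotype the difference between the sets was not tested, and 40.8% and 14.9% of genes passed 1.5-fold in these sets. Higher in B-marker-positive and lower in B-marker-negative cells was Zbtb20, a zinc finger repressor (2.97 against 0.498). Cell cycle and cytoskeleton genes were lower in B-marker-positive and higher in B-marker-negative cells. These were Stmn1 (0.102 against 1.10), Hmgb2 (0.137 against 1.23), Cenpa (0.192 against 1.24), Tuba1b (0.371 against 1.46) and Tubb5 (0.383 against 1.33). Early response genes went the same way. Their ratios were 0.506 against 1.59 for Jun, 0.601 against 1.24 for Jund, 0.559 against 1.47 for Btg2 and 0.435 against 2.28 for Nfkbia. Plac8 had 0.570 against 1.07. In MHC II-high cells without T genes, Jund had a ratio of 2.34 (1.59 to 3.52) and Stmn1 of 0.174 (0.0427 to 0.527).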

How the results depend on the processing

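Over all 120 selected barcodes, 14.6% of 7699 genes passed 1.5-fold, and values moved mostly with the definition of the cells. The share ratio of 0.753 became 0.449 with at least 5 Cd79 UMIs, 0.346 with a B marker, 0.159 with other T cell genes at 0, 0.381 with a B marker and without T genes, 0.136 in Vpreb3-high and 1.15 in B-marker-negative cells. The Tsc22d3 ratio of 1.62 (1.22 to 2.18) became 3.14, 3.10, 3.25 and 2.47 in the first 4 of these, 3.86 in MHC II-high cells and 2.95 in those without T genes. The Slc15a2 ratio of 4.61 (1.32 to 24.7) stayed above 1 under each alternative that gave a value. B-marker-positive cells without T genes, with 0 WT UMIs, gave none. B-marker-negative cells held 3 WT and 15 cKO of the Slc15a2 UMIs, so the ratio describes mainly those cells. The comparators' Tsc22d3 ratios moved by less than their intervals under a stricter cell filter and without doublets.

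The summed interferon-stimulated ratio of 0.805 turned to 1.0 with at least 5 Cd79 UMIs and to 1.07 with a B marker. It was 0.845 with at least 2 Cd79 UMIs, 0.837 centred on the median of all genes, 0.757 as a mean of per-cell CPM, 0.861 with other T cell genes at 0, 0.906 with a B marker and without T genes, 0.871 in MHC II-high cells, 0.773 in those without T genes and 0.852 in B-marker-negative cells. The list's median turned to 0.21 with a B marker. The B cell identity median turned to 0.42 with at least 5 Cd79 UMIs and to 0.31 with a B marker, and that of T cell genes to 0.059 as a mean of per-cell CPM.

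The count of 1123 genes past the fold was 354 with at least 2 Cd79 UMIs, 2081 with at least 1 UMI, 475 with at least 50 UMIs, 1777 as a mean of per-cell CPM, 684 with other T cell genes at 0, 350 with a pseudocount of 20 CPM, 461 in MHC II-high cells, 413 in those without T genes and 405 in Vpreb3-high cells. The thinned WT share with a Tsc22d3 UMI fell from 31.8% to 13.4% when cells were thinned to 1000 in place of 2000 UMIs.

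Of the genes named over all selected barcodes, some with ratios above 1 fell below it. With at least 2 Cd79 UMIs, Adgrg3 had 0.845 and Bex6 0.908. With a B marker, Hhex had 0.779, and Adgrg3, Bex6, Cd160, Ifitm2, Igfbp4 and Rab37 had 0 UMIs in cKO, a ratio of 0. With other T cell genes at 0, Hhex had 0.522 and Cd160 and Ier3 a ratio of 0. The cause was not tested. The first of these sets holds more cells and the other 2 hold fewer, and depth limits the ratios: a ratio with 0 UMIs in a library says only that none was counted. No paired analysis was possible because each group has 1 library, and no library could be left out.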
